A study of Homo sapiens with 4 samples.

Results

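The genes of Wnt signalling were examined by RNA-seq in NT2, or NTERA-2, a human cell line from an embryonal carcinoma. They were chosen by symbol: every WNT ligand, every Frizzled receptor, the co-receptors LRP5 and LRP6, the secreted inhibitors SFRP1, SFRP2, SFRP4, SFRP5, FRZB and DKK1 to DKK4, the turnover genes LGR5, RNF43 and ZNRF3, the nuclear factors TCF7, TCF7L1, TCF7L2 and LEF1, and the feedback genes AXIN2, NKD1 and NKD2. This gave 50 of the 62696 genes in the count tables. The study compared 1 library of cells with an empty vector, whose genotype is given as wild type and which is called the control here, with 3 libraries labelled as HYDIN2 knockdown, replicates 1 to 3. The labels do not state how the knockdown was made or whether the replicates were separate cultures. The count columns themselves are named for a LacZ control and for numbered GKAP_KIF27 sets, names that the sample labels do not use.

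Wnt proteins are secreted lipid-modified ligands that bind a Frizzled receptor and the co-receptor LRP5 or LRP6 at the cell surface. In the canonical branch this stabilises β-catenin, which enters the nucleus and acts with TCF and LEF factors on target genes such as AXIN2, NKD1 and LEF1. SFRP proteins bind Wnt ligands outside the cell, DKK proteins block LRP5 and LRP6, and ZNRF3 and RNF43 remove Frizzled receptors from the membrane unless R-spondins and LGR receptors restrain them. WNT5A is known mainly for the branch that works without β-catenin, through receptors such as ROR1 and ROR2 and the planar polarity genes. In pluripotent and embryonal carcinoma cells, canonical Wnt activity is known to move cells towards mesoderm.

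Library totals ran from 25181737 to 62904698 counts. Levels are given in CPM, the count relative to the library total after TMM scaling (the trimmed mean of M-values), and differences as log2 CPM of a labelled knockdown library minus that of the control. The targeted gene, HYDIN2, had 0.489 CPM (12 counts) in the control and 2.47, 1.93 and 0.342 CPM (150, 112 and 11 counts) in replicates 1, 2 and 3. HYDIN2 was higher than the control in replicates 1 and 2, with log2 differences of 2.23 and 1.88, and at -0.47 in replicate 3 on few counts. It thus did not bear out the knockdown labels, and every direction below is that of libraries labelled knockdown. Replicate 3 stood apart from replicates 1 and 2, and values without it are given beside the counts it decides. The markers of embryonal carcinoma cells were present in all 4 libraries: the 10 fixed markers summed to 6940 CPM in the control and to 7250, 7500 and 4050 CPM in replicates 1, 2 and 3. Of the 10, 6 were below the control in all 3 replicates (POU5F1, DNMT3B, TDGF1, L1TD1, ZSCAN10 and DPPA4) and 1, SALL4, above it in all 3. DNMT3B was called lower, and the median difference of the list was -0.50. The 7 mesoderm markers summed to 27.0, 72.5, 67.9 and 105 CPM in the same order, 5 endoderm markers to 7.75, 14.3, 12.7 and 25.1 CPM, 10 neural markers to 215, 419, 398 and 349 CPM, and 7 mesenchymal markers to 143, 320, 292 and 211 CPM. HAND1 and KDR made up most of the mesoderm sum, and NES most of the neural sum. Of markers with a mean CPM of at least 1, 3 of 5 mesoderm, 3 of 3 endoderm, 4 of 6 neural and 4 of 6 mesenchymal lay above the control in all 3 replicates. Of these markers, PAX6, EOMES and ZIC1 were under 1 CPM in the control and met that minimum only through labelled knockdown libraries. The places of PAX6 and EOMES in these counts were therefore largely fixed by their entry. TBX6, of mesoderm, lay below the control in all 3, as did the neural FABP7 and NEUROD1, which were under that minimum. COL3A1, a mesenchymal marker, had 3.96 CPM against 0.758, 0.585 and 6.02 CPM. The 4 blood markers summed to at most 2.37 CPM. Of defining markers, HES5 had 0 counts in all 4 libraries, FOXA2 and DCN had at most 2 counts, and PAX6 had 0 counts in the control and 957, 784 and 92 counts in the replicates. TBXT, the early mesoderm factor, had 6 counts in the control, 0 in replicates 1 and 2 and 36 in replicate 3. The part of these shifts in the Wnt results was not tested, and in bulk RNA a change in the number of cells of a type and a change in RNA per cell cannot be told apart.

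Of the 50 Wnt genes, 42 had counts in all 4 libraries, 5 had 0 counts in the control, and 1 of these, WNT9B, had none anywhere. With a mean CPM of at least 1 required, 32 entered the comparison. A gene was called when all 3 labelled knockdown libraries lay 2-fold or more to the same side of the control. By this rule 5 of the 32 were higher, WNT5A, WNT2B, SFRP1, LRP6 and FZD3, and 0 were lower. Among all 15857 genes tested, 3.99% were called higher and 2.34% lower. The median difference of the 32 genes was 0.56, against 0.02 for all genes tested. In the single libraries the Wnt median was 0.54, 0.55 and 0.87 in replicates 1, 2 and 3, and that of all genes was 0.09, 0.12 and -0.17. Scaling by total counts moved the median of all genes in replicate 3 to 0.05 and the Wnt median there to 1.08. Of the 32 genes, 19 lay above the control in all 3 others (59.4%, against 31.3% of all genes tested) and 3 lay below it in all 3, namely SFRP2, FZD9 and TCF7. The number above was 17 or 18 under 4 other scalings. WNT4, among the 19, was under 1 CPM in the control and met the expression minimum only through replicates 1 and 2.

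WNT5A and SFRP1 were called under every scaling, whereas LRP6, FZD3 and WNT2B lay close to the 2-fold line. With RLE or upper quartile scaling, or TMM factors taken from filtered genes, only WNT5A and SFRP1 of the 32 were called, and with total counts WNT2B as well. The share of all genes called higher was 3.61% with RLE, 3.58% with upper quartile, 3.65% with filtered TMM factors and 4.64% with total counts. Without replicate 3 the count was 8 higher, with FZD5, TCF7L1 and WNT4 added, and 1 lower, FZD9. Of all genes tested, 11.2% were then called higher and 4.45% lower. WNT4 met the expression minimum only through replicates 1 and 2, so its call there was largely fixed by its entry. Transcript length also moved with the difference. Across 15463 genes, which are not independent, the Spearman correlation of the difference with the length of the longest transcript was 0.347, 0.298 and 0.461 in replicates 1, 2 and 3. After smooth trends on length and GC content were removed, only WNT5A was called and the Wnt median was 0.37, against -0.02 for all genes. With these trends removed, 2.66% of all genes were called higher and 1.62% lower. HYDIN2, whose longest transcript has 14154 nt, then stood at 1.55, 1.27 and -1.65 in replicates 1, 2 and 3.

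**Figure D1:**
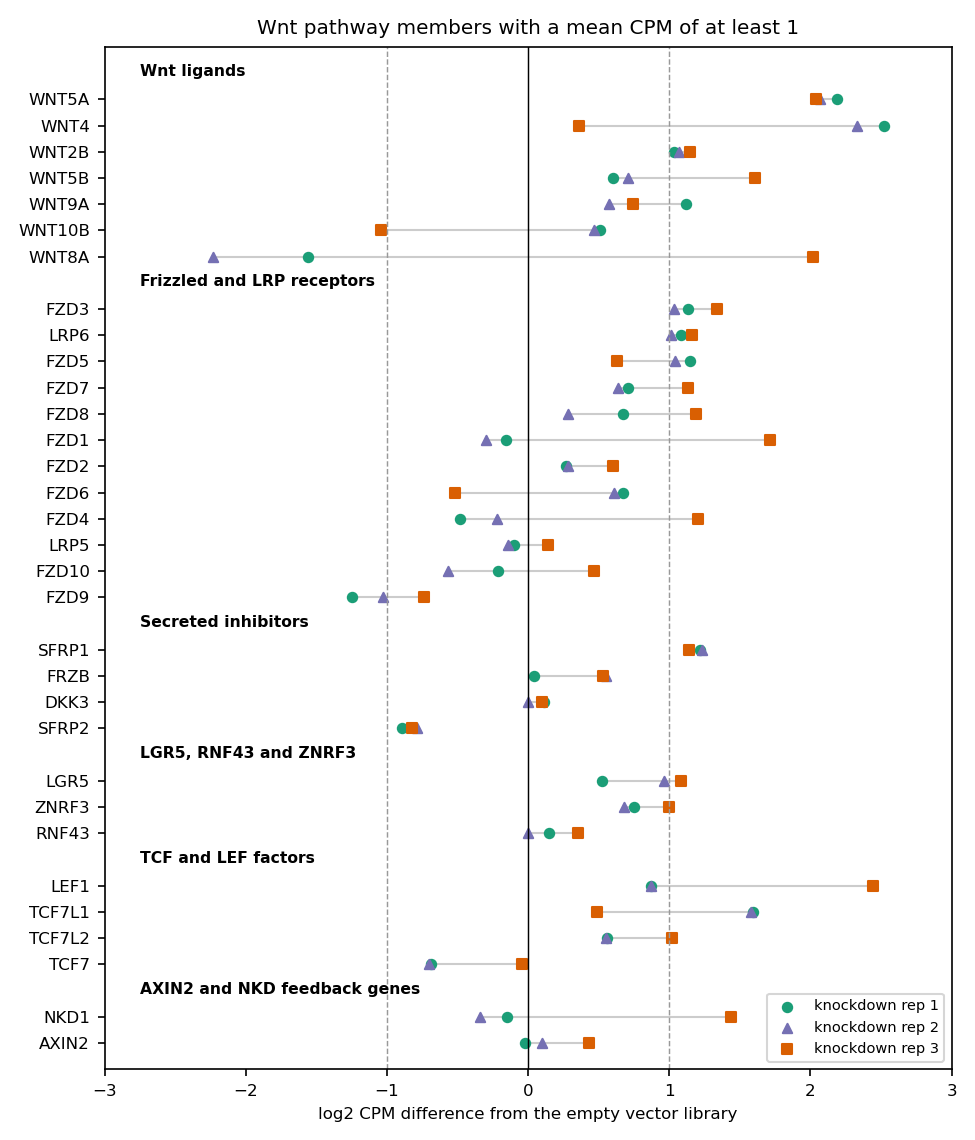
Differences in log2 CPM from the control (horizontal axis) for the 32 Wnt genes with a mean CPM of at least 1, by role. Each symbol is 1 labelled knockdown library, grey lines join the lowest and highest of a gene, and dashed lines mark 2-fold. All 3 symbols of WNT5A lie above 2, those of SFRP1 between 1.14 and 1.23, and those of SFRP2 between -0.89 and -0.79.

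edgeR's quasi-likelihood test, with the spread taken from the 3 labelled knockdown libraries, called 0 of 26029 genes (0%) at a Benjamini-Hochberg adjusted p of 0.05. Of the 46 Wnt genes in that fit none was called, and the smallest adjusted p was 0.358. Before adjustment, 3023 genes had a p under 0.05, and 10 of these were Wnt genes, 9 of them higher. The Wald test of DESeq2 called 404 of 14422 genes (2.80%), among them 1 of the 31 Wnt genes with an adjusted p, WNT5A at 3.9e-05, and voom in limma called 0. These p-values compare 1 library with the spread of 3 that may be technical repeats, not the conditions. Without replicate 3, edgeR's test called 11177 of 25016 genes (44.7%) and 30 of the 44 Wnt genes in that fit (68.2%). Replicates 1 and 2 then supply the whole spread.

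Of the 19 ligands, 7 were tested and 2 called higher, with a median difference of 0.97. WNT5A stood highest among them in every library. WNT5A (ENSG00000114251.15; GRCh38 chromosome 3, 55465715 to 55490539, minus strand) had 33.8 CPM (828 counts) in the control. It had 154, 142 and 139 CPM (9338, 8274 and 4469 counts) in knockdown-labelled replicates 1, 2 and 3. The 3 libraries lay close together and all far above the control, with a mean of 145 ± 7.9 CPM (SD, n = 3). The ratios to the control were 4.56 (95% interval 4.12 to 5.05), 4.21 (3.81 to 4.67) and 4.11 (3.70 to 4.57), where the intervals cover counting error only. The mean log2 difference was 2.10 ± 0.08 (SD, n = 3), and 1.73 with length and GC trends removed. WNT5A-AS1, a noncoding gene that overlaps WNT5A on the other strand, was also higher, with 19 counts in the control and 317, 280 and 155 in the replicates. Reads of the more abundant WNT5A could enter the WNT5A-AS1 count if strand was not used.

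Promoter windows are printed for 3 genes: WNT5A as the ligand with the largest even difference, LEF1 as the TCF/LEF family member that is itself a target, and DKK1 as the gene whose window held a TCF/LEF motif. Each run is the 250 bases before a RefSeq start on GRCh38.p14, 5′ to 3′ on the gene's strand, and capitals mark a match to the TCF/LEF motifs CTTTGAT or CTTTGAA on either strand. WNT5A has a window for each of 2 annotated starts, and the windows of WNT5A and LEF1 lie inside the longer spans that GENCODE gives these genes.
WNT5A upstream start (chr3:55487307-55487556, minus strand): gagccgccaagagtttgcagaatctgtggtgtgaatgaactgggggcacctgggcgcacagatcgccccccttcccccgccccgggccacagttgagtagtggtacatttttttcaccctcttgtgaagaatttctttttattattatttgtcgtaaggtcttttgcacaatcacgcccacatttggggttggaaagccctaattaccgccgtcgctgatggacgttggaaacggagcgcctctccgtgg
WNT5A downstream start (chr3:55481399-55481648, minus strand): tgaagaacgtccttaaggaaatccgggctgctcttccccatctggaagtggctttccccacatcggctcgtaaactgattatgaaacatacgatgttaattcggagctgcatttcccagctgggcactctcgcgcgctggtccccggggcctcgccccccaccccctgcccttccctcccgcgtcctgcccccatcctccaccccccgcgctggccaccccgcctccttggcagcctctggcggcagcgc
LEF1 (chr4:108166302-108166551, minus strand): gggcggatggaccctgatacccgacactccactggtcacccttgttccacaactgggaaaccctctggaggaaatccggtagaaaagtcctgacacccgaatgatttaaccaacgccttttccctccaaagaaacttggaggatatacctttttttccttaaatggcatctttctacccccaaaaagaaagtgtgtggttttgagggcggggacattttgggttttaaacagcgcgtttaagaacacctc
DKK1 (chr10:52314031-52314280, plus strand): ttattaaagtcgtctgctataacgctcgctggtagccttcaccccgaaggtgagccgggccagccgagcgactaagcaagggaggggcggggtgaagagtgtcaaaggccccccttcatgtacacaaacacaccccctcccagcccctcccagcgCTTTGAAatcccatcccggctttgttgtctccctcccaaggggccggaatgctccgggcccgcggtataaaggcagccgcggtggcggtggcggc
The DKK1 match is CTTTGAA and begins 95 bases before the start. Of the 50 Wnt genes, 33 had 40 windows in the RefSeq table, and this was the single window with a match (2.50%). Among all 35116 windows, 5.94% held either motif, 2.26% CTTTGAT and 3.80% CTTTGAA. A match describes letters in the window and no binding, and the WNT5A and LEF1 windows without a match say only that these letters are not in those 250 bases.

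WNT2B (ENSG00000134245.18; chromosome 1, 112466541 to 112530165, plus strand), a canonical ligand, had 4.69 CPM (115 counts) in the control and 9.64, 9.91 and 10.5 CPM in replicates 1, 2 and 3. Its mean log2 difference was 1.08 ± 0.06 (SD, n = 3), and 0.35 with length and GC trends removed. Its longest transcript has 10879 nt. It overlaps ST7L on the other strand. WNT5B, the close relative of WNT5A, had 9.30 CPM in the control and 14.1, 15.2 and 28.4 CPM in the replicates, so that replicate 3 stood highest. Its mean difference was 0.97 ± 0.55 (SD, n = 3). WNT5B overlaps FBXL14 on the other strand, which had 39.3 CPM in the control and 58.9, 59.7 and 91.0 CPM in the replicates, so reads of the more abundant FBXL14 could enter the WNT5B count if strand was not used. WNT9A had 1.96 CPM against 4.32, 2.92 and 3.29 CPM, above the control in all 3.

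For 3 ligands replicate 3 parted from the other replicates. WNT4 had 0.571 CPM (14 counts) in the control, 3.49 and 3.06 CPM (212 and 178 counts) in replicates 1 and 2, and 0.745 CPM (24 counts) in replicate 3. The mean difference of WNT4 was 1.74 ± 1.20 (SD, n = 3), and 2.43 without replicate 3. WNT10B had 8.28 CPM in the control, 11.8 and 11.5 CPM in replicates 1 and 2, and 4.01 CPM in replicate 3. WNT8A, a canonical ligand of early mesoderm, showed the reverse order, with 0.816 CPM (20 counts) in the control, 0.247 and 0.138 CPM in replicates 1 and 2 (15 and 8 counts), and 3.45 CPM (111 counts) in replicate 3. The ratio of WNT8A in replicate 3 was 4.22 (2.13 to 9.29).

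The other 12 ligands fell under the expression minimum, with at most 88 counts in any library. WNT3A, the ligand most used to activate the canonical branch, had 27 counts (1.10 CPM) in the control and 4, 12 and 14 counts (0.0659, 0.206 and 0.435 CPM) in the replicates. Its ratios were 0.0599 (0.00658 to 0.262), 0.187 (0.0587 to 0.524) and 0.395 (0.134 to 1.05). WNT7B had 18 counts in the control and 4, 8 and 0 in the replicates. WNT10A had 7 counts in the control and 82, 64 and 0 in the replicates, again with replicate 3 apart. WNT6 and WNT8B had 0 counts in the control and 4 to 16 in the replicates. WNT1, WNT11, WNT16, WNT2, WNT3 and WNT7A had between 0 and 88 counts. With a mean CPM of at least 0.1, the rule also called WNT6 and DKK2 higher and WNT3A, WNT7B and NKD2 lower, with 6.36% of 26533 genes higher and 3.52% lower. WNT6 and DKK2, at 0 counts in the control, met that lower minimum only through the replicates, and WNT7B only through the control. The direction of these genes was therefore fixed by their entry.

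Levels of different ligands were compared per kilobase of the longest annotated transcript. In the control WNT5A, WNT5B and WNT10B stood at 5.47, 4.04 and 3.64 CPM per kb and took 33.5%, 24.8% and 22.3% of the summed ligand level. In the labelled knockdown libraries the WNT5A share was 60.3%, 58.8% and 53.4%, a mean of 57.5% ± 3.63 (SD, n = 3). The summed ligand level was 16.3 CPM per kb in the control and 41.3, 39.2 and 42.1 CPM per kb in the replicates. Replicate 3 thus had the same sum as the others with a different make-up: WNT5B took 29.4% of it there, against 14.8% and 16.8% in replicates 1 and 2, and WNT10B 4.19%, against 12.6% and 12.9%.

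**Figure D2:**
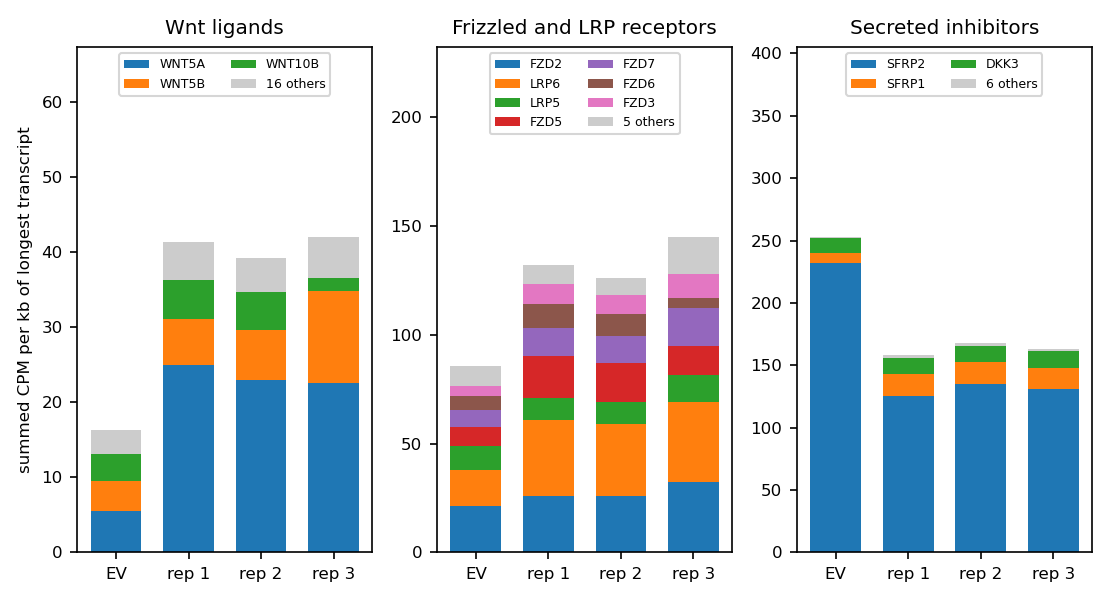
Summed CPM per kb of the longest transcript (vertical axis, from 0) in the control (EV) and the 3 labelled knockdown replicates, stacked by gene. WNT5A makes up most of the ligand level in the replicates, and SFRP2 makes up most of the inhibitor level in all 4 libraries, 91.6% in EV.

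All 12 receptors passed the expression minimum, 2 were called higher, and the median difference was 0.40. LRP6 (ENSG00000070018.9; chromosome 12, 12116025 to 12267012, minus strand), the co-receptor that relays canonical signals, had 164 CPM in the control and 348, 331 and 368 CPM in replicates 1, 2 and 3. The replicates lay together, with ratios of 2.12 (2.02 to 2.22), 2.01 (1.92 to 2.11) and 2.24 (2.13 to 2.36), so the counting interval of replicate 2 included 2 and those of the others did not. LRP5, its homologue, had 57.5 CPM in the control and 53.7, 52.1 and 63.4 CPM in the replicates, values on both sides of the control. FZD3 (ENSG00000104290.11; chromosome 8, 28494205 to 28574268, plus strand), a Frizzled known for axon guidance, had 59.8 CPM against 131, 122 and 152 CPM. The mean difference of LRP6 was 1.09 ± 0.08 (SD, n = 3) and that of FZD3 was 1.17 ± 0.16 (SD, n = 3). With length and GC trends removed these were 0.40 and 0.34, and the longest transcripts of LRP6 and FZD3 have 10020 and 13740 nt.

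Of the remaining Frizzled genes, FZD2, FZD5, FZD7 and FZD8 lay above the control in all 3 replicates without reaching 2-fold in each. FZD5 had 58.4 CPM in the control and 130, 120 and 90.4 CPM in the replicates, with replicate 3 closest to the control. FZD7 had 30.5 CPM against 49.9, 47.6 and 66.6 CPM, with replicate 3 farthest. FZD2, the Frizzled with the highest level per kb in every library, had 45.0 CPM against 54.5, 54.8 and 68.5 CPM. FZD9 was the 1 receptor below the control in all 3, with 6.04 CPM against 2.50, 2.92 and 3.60 CPM, a mean difference of -1.01 ± 0.26 (SD, n = 3).

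FZD1, FZD4 and FZD6 split the replicates. FZD1 had 9.95 CPM in the control, 8.91 and 8.05 CPM in replicates 1 and 2, and 32.7 CPM in replicate 3. Its ratio in replicate 3 was 3.29 (2.69 to 4.03), and the intervals in replicates 1 and 2, 0.721 to 1.12 and 0.647 to 1.02, included 1. FZD4 followed the same order with 10.1, 7.20, 8.67 and 23.2 CPM. FZD6 had the opposite order, 25.2 CPM in the control, 40.2 and 38.5 CPM in replicates 1 and 2, and 17.6 CPM in replicate 3. It overlaps BAALC-AS1 on the other strand, which had the same order with 4.89, 8.21, 8.31 and 2.55 CPM. FZD4 overlaps PRSS23 on the other strand, which had 35.7, 79.0, 74.7 and 34.4 CPM. Reads of these genes could enter the FZD6 and FZD4 counts if strand was not used. BAALC-AS1 was less abundant than FZD6 in every library, so FZD6 reads could also enter the BAALC-AS1 count. PRSS23 was highest in replicates 1 and 2, where FZD4 was lowest. FZD10 ranged from 1.31 to 2.73 CPM. Per kb, the 10 Frizzled genes summed to 58.0 CPM in the control and to 87.0, 83.0 and 96.1 CPM in the replicates, a mean of 88.7 ± 6.71 (SD, n = 3).

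The secreted inhibitors included SFRP2, the Wnt gene with the highest level per kb in the control, and 2 SFRP genes that differed from the control in opposite directions. Of 9 inhibitors, 4 were tested and 1 called higher, with a median difference of 0.22. SFRP2 (ENSG00000145423.5; chromosome 4, 153780592 to 153789120, minus strand) had 472 CPM (11577 counts) in the control and 255, 274 and 267 CPM in replicates 1, 2 and 3. SFRP1 (ENSG00000104332.12; chromosome 8, 41261958 to 41309497, minus strand) had 34.5 CPM (846 counts) in the control and 80.6, 80.9 and 76.3 CPM in the replicates. In both genes the 3 replicates were nearly level and none overlapped the control. The ratios of SFRP2 were 0.540 (0.521 to 0.558), 0.580 (0.560 to 0.600) and 0.565 (0.543 to 0.588), a mean log2 difference of -0.83 ± 0.05 (SD, n = 3), which does not reach 2-fold. The ratios of SFRP1 were 2.34 (2.11 to 2.60), 2.34 (2.11 to 2.61) and 2.21 (1.98 to 2.48), a mean log2 difference of 1.20 ± 0.05 (SD, n = 3). With length and GC trends removed the differences were -0.54 for SFRP2 and 1.09 for SFRP1.

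Per kb, SFRP2 stood at 232 CPM in the control, far above SFRP1 at 7.68 and DKK3 at 12.2 CPM per kb. SFRP1 took 3.03% of the summed inhibitor level in the control and 10.8% ± 0.451 (SD, n = 3) in the labelled knockdown libraries. The summed level was 254 CPM per kb in the control and 159, 167 and 163 CPM per kb in the replicates. This sum followed SFRP2, and without SFRP2 the other inhibitors summed to 21.2 CPM per kb in the control and 33.5, 32.6 and 31.8 CPM per kb in the replicates. DKK3, a divergent DKK member, was level in all 4 libraries at 32.3, 34.7, 32.3 and 34.6 CPM. FRZB had 1.51 CPM against 1.55, 2.24 and 2.20 CPM.

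The other 5 inhibitors were under the expression minimum. DKK1, the inhibitor of LRP6 and itself a Wnt target, had 14 counts (0.571 CPM) in the control and 80, 70 and 38 counts (1.32, 1.20 and 1.18 CPM) in the replicates. Its replicates were level with each other, and the counting interval of the ratio excluded 1 in replicate 1 (2.31, 1.02 to 6.11) but not in replicate 2 (2.11, 0.923 to 5.62) or replicate 3 (2.07, 0.832 to 5.82). DKK2 had 0 counts in the control and 72, 47 and 6 in the replicates. Set against a floor of 3 counts in the control, DKK2 stood 9.70-fold higher in replicate 1, 6.61-fold in replicate 2 and 1.52-fold in replicate 3. The lower ends of its counting intervals were 3.74, 2.48 and 0.315, so that of replicate 3 lay below 1. SFRP4 had 4 counts against 30, 32 and 11, and it overlaps EPDR1 on the other strand. SFRP5 had 22 counts against 80, 66 and 12, and DKK4 had 2 counts in replicate 1 and 0 elsewhere.

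**Figure D3:**
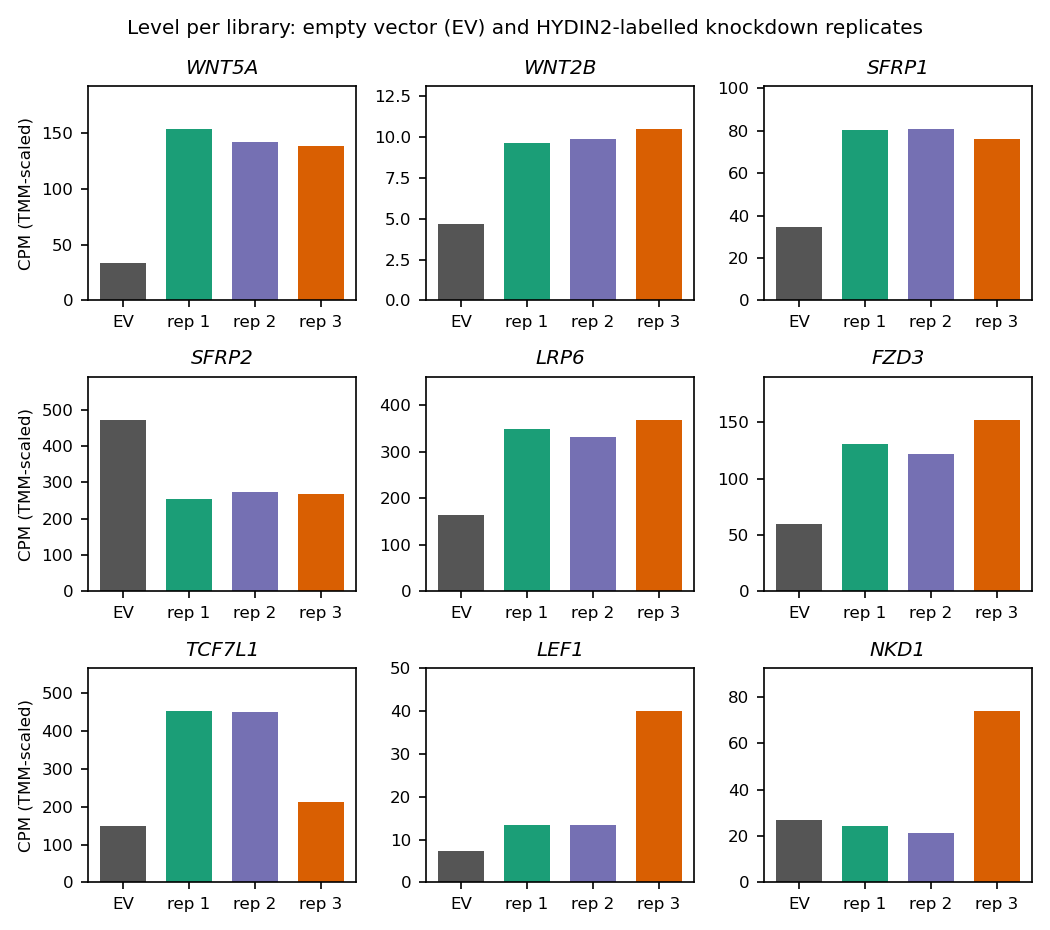
CPM in each library (vertical axes from 0) for 9 Wnt genes, with the control (EV) in grey and the labelled knockdown replicates in colour. The replicates are level for WNT5A, WNT2B, SFRP1, SFRP2 and LRP6, while replicate 3 stands apart for TCF7L1, LEF1 and NKD1.

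Among the turnover genes, ZNRF3 had 17.5 CPM in the control and 29.4, 28.2 and 35.1 CPM in replicates 1, 2 and 3, a mean difference of 0.81 ± 0.17 (SD, n = 3), and 0.43 with length and GC trends removed. LGR5, the R-spondin receptor of intestinal stem cells, had 2.12 CPM against 3.06, 4.16 and 4.53 CPM, a mean difference of 0.85 ± 0.29 (SD, n = 3). RNF43 had 1.84 CPM against 2.04, 1.84 and 2.36 CPM. None of the 3 was called. ZNRF3 took 76.4% of their summed level per kb in the control and between 76.9% and 80.7% in the replicates.

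The 4 TCF and LEF factors differed in which replicates stood farthest from the control, and none was called, with a median difference of 0.97. TCF7L1 (ENSG00000152284.5; chromosome 2, 85133410 to 85310388, plus strand), which acts mostly as a repressor in pluripotent cells, had 150 CPM in the control, 453 and 450 CPM in replicates 1 and 2, and 212 CPM in replicate 3. The ratios of TCF7L1 were 3.01 (2.87 to 3.17), 3.00 (2.86 to 3.15) and 1.41 (1.33 to 1.49). LEF1 (ENSG00000138795.10; chromosome 4, 108047545 to 108168956, minus strand), an activating factor and a target of the pathway, had 7.34 CPM in the control, 13.5 and 13.5 CPM in replicates 1 and 2, and 40.0 CPM in replicate 3. Its ratios were 1.83 (1.46 to 2.33), 1.83 (1.46 to 2.33) and 5.44 (4.36 to 6.86). LEF1-AS1, on the other strand, had at most 20 counts in any library. Both factors were above the control in all 3 replicates, TCF7L1 most in replicates 1 and 2 and LEF1 most in replicate 3.

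TCF7L2 had 61.5 CPM against 90.4, 89.8 and 125 CPM, with replicate 3 highest. TCF7 had 28.3 CPM against 17.5, 17.4 and 27.6 CPM, so replicate 3 was level with the control, and its gene overlaps SKP1 on the other strand. Per kb, TCF7L1 took 69.4% of the summed TCF and LEF level in the control, 84.0% in replicates 1 and 2 and 60.4% in replicate 3. LEF1 took 2.90%, 2.13%, 2.15% and 9.73% in the same order.

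The feedback genes AXIN2 and NKD1 lay on both sides of the control. AXIN2, the negative regulator most used as a readout of canonical signalling, had 9.38 CPM (230 counts) in the control and 9.28, 10.1 and 12.6 CPM (563, 586 and 407 counts) in the replicates. Its mean difference was 0.17 ± 0.23 (SD, n = 3), smaller than its spread. The ratios were 0.989 (0.793 to 1.24), 1.07 (0.863 to 1.34) and 1.35 (1.07 to 1.71). NKD1 (ENSG00000140807.7; chromosome 16, 50548330 to 50649249, plus strand), which restrains Dishevelled, had 27.1 CPM in the control, 24.4 and 21.4 CPM in replicates 1 and 2, and 73.9 CPM in replicate 3. Its ratios were 0.899 (0.789 to 1.03), 0.789 (0.689 to 0.904) and 2.72 (2.41 to 3.08). The longest transcript of NKD1 has 17105 nt, and with length and GC trends removed its 3 differences were -0.87, -0.99 and 0.17. The mean difference of NKD1 was 0.32 ± 0.98 (SD, n = 3) as measured, -0.25 without replicate 3 and -0.56 with those trends removed. NKD2 was under the expression minimum with 36 counts (1.47 CPM) against 20, 10 and 20 counts (0.330, 0.172 and 0.621 CPM), below the control in all 3.

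**Figure D4:**
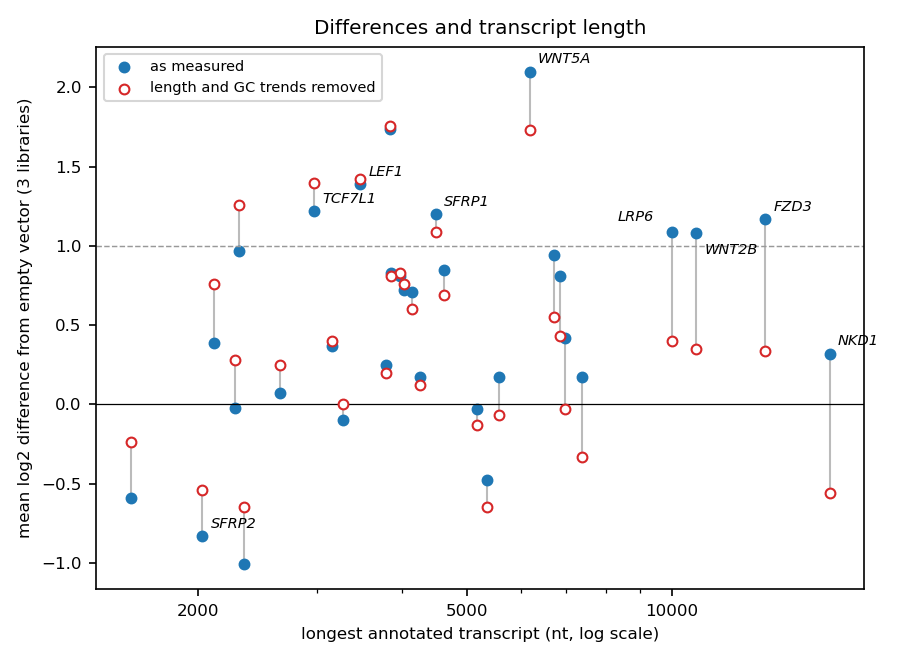
Mean log2 difference from the control (vertical axis) against the longest annotated transcript in nt (horizontal log axis) for the 32 Wnt genes, as measured (filled) and with length and GC trends removed (open). The long-transcript genes LRP6, WNT2B and FZD3 stand at 0.40, 0.35 and 0.34, while WNT5A stays at 1.73 and SFRP1 at 1.09.

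In the single libraries, 9 of the 32 Wnt genes lay at least 2-fold above the control in replicate 1, 8 in replicate 2 and 16 in replicate 3. The shares of all genes tested were 12.8%, 11.9% and 11.0%. With length and GC trends removed the Wnt counts were 5, 4 and 7, against 11.1%, 10.1% and 8.05% of all genes. At least 2-fold below it were 2, 2 and 1 Wnt genes, against 6.42%, 5.55% and 16.1% of all genes. Below the control in replicates 1 and 2 and above it in replicate 3 were 6 of the 32 (18.8%, against 8.59% of all genes): WNT8A, FZD1, FZD4, FZD10, LRP5 and NKD1. The opposite order held for WNT10B and FZD6 (6.25%, against 21.0% of all genes). WNT8A, under 1 CPM in the control and in replicates 1 and 2, met the expression minimum only through replicate 3, with a mean CPM of 1.05. Its place among the 6, and among the 16 in replicate 3, was therefore fixed by its entry. The 3 libraries share the 1 empty vector library, so these counts are not independent.

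**Figure D5:**
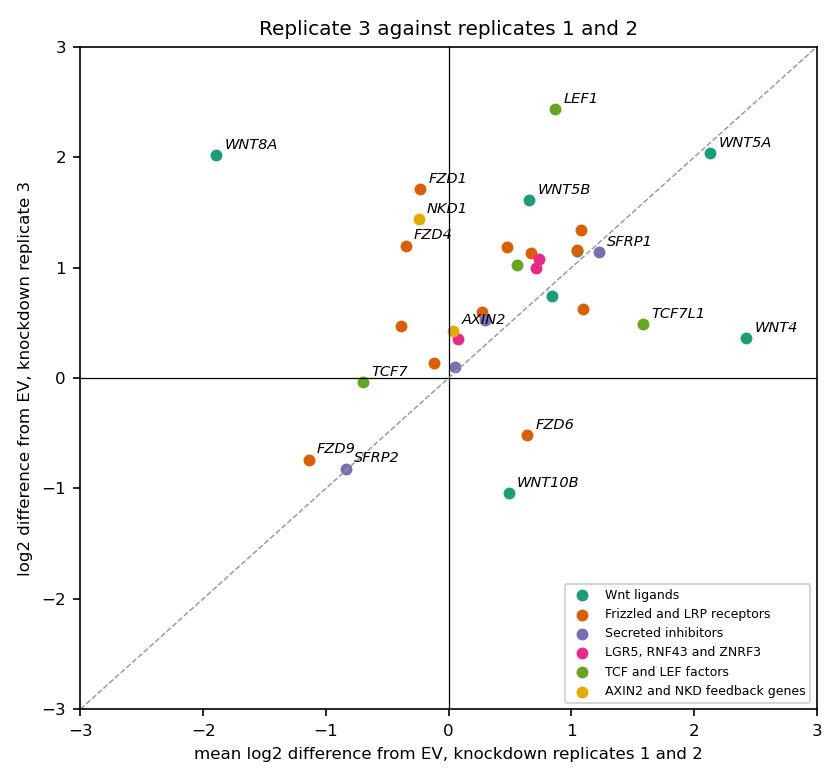
Log2 difference from the control in labelled knockdown replicate 3 (vertical axis) against the mean of replicates 1 and 2 (horizontal axis) for the 32 Wnt genes, coloured by role, with the line of equal values dashed. LEF1, NKD1, FZD1, FZD4 and WNT8A lie above the line, TCF7L1, WNT4, WNT10B and FZD6 below it, and WNT5A, SFRP1 and SFRP2 close to it.

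Among 72 other genes of the pathway, in 7 lists, 61 were tested, 2 were called higher (3.28%) and 1 lower (1.64%), shares near or under the 3.99% and 2.34% of all genes, and the median difference was 0.27. PRICKLE2, a planar polarity gene, had 8.65 CPM in the control and 27.1, 23.7 and 24.6 CPM in replicates 1, 2 and 3, a mean difference of 1.53. BCL9L, a β-catenin cofactor, had 57.3 CPM against 164, 145 and 162 CPM, a mean difference of 1.45. With length and GC trends removed both lost their call, with mean differences of 0.84 for PRICKLE2 and 0.89 for BCL9L, whose longest transcripts have 9956 and 10005 nt. NOTUM, a secreted enzyme that removes the lipid of Wnt ligands and is a target of the pathway, had 2.37 CPM (58 counts) against 0.395, 0.172 and 0.931 CPM (24, 10 and 30 counts). It was the 1 gene called lower. NOTUM met the expression minimum only through the control, so its direction was fixed by its entry. CTNNB1, which encodes β-catenin, had 666 CPM against 881, 839 and 664 CPM, a mean difference of 0.24.

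By list, the 13 genes for other receptors and planar polarity had a median difference of 0.55, with 12 above 0 and 1 called higher. With length and GC trends removed the median was 0.19. The 15 genes of cytoplasmic transduction and the destruction complex had a median of 0.24 with none called. The 10 tested nuclear cofactors had 0.29 with 1 called higher, and the 9 tested target genes had 0.34 with none called. The 5 genes of ligand production and release had a median of -0.06 with 1 called lower, and the 7 other extracellular inhibitors tested had -0.26 with none called. The 2 tested genes among R-spondins and their receptors had 0.15, also with none called.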

How the data were processed

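RNA of 4 NT2 libraries was measured. The authors deposited raw counts per gene, 1 table per library. STAR 2.7.11b, featureCounts 2.0.6, DESeq2 and the build GRCh38 are named in the submitters' processing notes, while the strand setting and annotation release are not given in the sources used here. Between 65.2% and 68.0% of nonzero counts were even. Counting each read of a pair would raise this share, but whether that was done is not stated and was not tested. In case it was, 95% intervals were computed on counts divided by 2 (exact binomial, Clopper-Pearson, for a ratio of libraries). They cover counting error only. A floor of 3 counts corresponded to 0.0494 to 0.122 CPM.

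Levels were computed with edgeR 4.0.16 in R 4.3.3 (TMM over the whole table, prior count of 2 for log2 values). Genes entered at a mean of the group mean CPMs of at least 1. Tests across all genes were edgeR's quasi-likelihood test, DESeq2 1.42.0 and voom in limma 3.58.1, with Benjamini-Hochberg adjustment, and the code was tested on simulated data. Coordinates and transcript lengths came from GENCODE 29, which matched 58225 of 62696 identifiers and all 50 Wnt genes. Of these, 22 overlap an annotated gene on the other strand, whose reads cannot be told apart without a known strand setting. Trends were lowess curves with a span of 0.3. Promoter windows came from RefSeq on GRCh38.p14.

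Named in full were called genes and, in each role, the 2 with the highest level per kb in the control and the 2 with the largest mean difference among those tested; WNT8A, WNT3A and other genes that split the replicates or had few counts were added after their values were seen. The members, lists and tests were chosen with earlier results of these data known. TMM factors over filtered genes were added after seeing the data.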

Additional observations from a re-analysis of the deposited data

How the results depend on the processing

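The count of Wnt genes called higher was 5. It was 2 with RLE size factors, upper quartile scaling or TMM over filtered genes, 3 with total counts, 1 with length and GC trends removed, 8 with no CPM minimum, 10 at 1.5-fold and 8 at 2-fold in the mean, and the count called lower, 0 as reported, was 3 with a mean CPM of at least 0.1 or no CPM minimum, 2 at 1.5-fold and 1 at 2-fold in the mean. Leaving out each replicate gave 5 to 8 higher and 0 to 1 lower, the extremes without replicate 3. WNT6, WNT8B and DKK2, among the 8 with no CPM minimum, had 0 counts in the control, so their direction was fixed by their entry. Over all genes, 633 were called higher and 371 lower. These were 412 higher with the trends removed, 1688 and 933 at a mean CPM of at least 0.1, 415 and 212 at 5, 2606 and 1708 with no minimum, 1672 and 1351 at 1.5-fold, and 1456 and 961 at 2-fold in the mean. As shares of the genes tested, these were 2.66%, 6.36% and 3.52%, and 3.54% and 1.81%. The last 3 settings gave 6.25% and 4.1%, 10.5% and 8.52%, and 9.18% and 6.06%. The Wnt genes tested numbered 46 at a mean CPM of at least 0.1, 24 at 5, 49 with no minimum and 32 otherwise. Leaving out each replicate gave 676 to 1771 higher (4.26% to 11.2%) and 414 to 703 lower (2.61% to 4.45%), the highest without replicate 3. edgeR's test called 0 genes, DESeq2 404 (1 Wnt gene), and leaving out each replicate in edgeR's test gave 17 to 11177 genes (0.0737% to 44.7% of those tested) and 0 to 30 Wnt genes (0% to 68.2%), the highest without replicate 3, with the lone control assumed to vary like the others.

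The mean differences of WNT5A, SFRP1, LRP6, FZD3 and WNT2B stayed above 0 under every scaling, prior count, omitted replicate and trend removal run. Their lowest values, all with trends removed, were 1.73, 1.09, 0.40, 0.34 and 0.35. Of the 17 named genes, NKD1 alone changed direction under these settings, from 0.32 to -0.25 without replicate 3 and to -0.56 with trends removed, moves within its wide SD of 0.98. The 2-fold counts in single replicates with trends removed were added after seeing the data. No paired analysis was possible because control libraries number 1. This single library limits every comparison, and depth limits the 18 genes under the CPM minimum.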
